A study of Rattus norvegicus with 54 samples.

Results

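The 10 genes described here encode the first steps in the breakdown of the branched-chain amino acids leucine, isoleucine and valine, together with the enzymes that switch the key step on and off. They are Bcat1, Bcat2, Bckdha, Bckdhb, Dbt, Bckdk, Ppm1k, Ivd, Mccc1 and Mccc2, and they were chosen by name, as the probe sets whose only gene symbol was one of these. Each was measured by 1 probe set, so that 10 of the 14506 genes with a probe set of their own are described. The study followed gene expression in the liver and the hind limb skeletal muscle of Wistar rats around birth, on Affymetrix GeneChip Rat Gene ST arrays. The liver was taken from foetuses at foetal days 16, 20 and 22 (F16, F20 and F22), from newborns at postnatal days 1 and 4 (P1 and P4) and from adults at day 90 (P90), with 4 arrays per time point. Skeletal muscle was taken at F16, F18, F20, F22, P1 and P4, with 5 arrays per time point. The labels name no genetic change and no treatment. The foetuses were delivered by Caesarean section, and the labels call the replicates biological without saying which of them shared a litter, so that the p-values measure the spread between these samples.

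Branched-chain amino acids are essential nutrients, and unlike most amino acids they are in adult mammals first transaminated mainly outside the liver. The cytosolic aminotransferase (Bcat1) or the mitochondrial one (Bcat2) moves the amino group to a ketoacid acceptor. The resulting branched-chain ketoacids are then irreversibly decarboxylated by the branched-chain ketoacid dehydrogenase complex of the mitochondrial matrix. Its E1 component is built from an alpha subunit (Bckdha) and a beta subunit (Bckdhb), its E2 core is Dbt, and its E3 component, Dld, is shared with other dehydrogenases. A kinase (Bckdk) phosphorylates E1 alpha and inactivates the complex, and a phosphatase of the matrix (Ppm1k) removes the phosphate and reactivates it. In the leucine branch, isovaleryl-CoA is oxidised by Ivd, and the next intermediate is carboxylated by the biotin enzyme methylcrotonoyl-CoA carboxylase, with the alpha subunit Mccc1 and the beta subunit Mccc2. Adult rat liver is known for a high activity of the dehydrogenase complex and a low activity of the mitochondrial aminotransferase.

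RMA values are given on the log2 scale throughout, so that a difference of 1 stands for a doubling of the signal. The median of an array was 7.06 to 7.16 for liver and 7.98 to 8.07 for skeletal muscle, each tissue having been normalised on its own, and levels were compared neither between tissues nor between genes. Arrays correlated with those of their own time point by 0.985 to 0.996 on average in liver and 0.987 to 0.996 in skeletal muscle. The lowest value in liver was that of P1 replicate 1, and 4 muscle arrays (F16 replicate 5, F20 replicates 4 and 5 and F22 replicate 5) were set apart in an earlier analysis of these data. This correlation alone does not single them out. It was 0.993 for F20 replicate 5 and lower, at 0.991, for muscle P4 replicate 2, which was not among them. The labelled tissues carried their markers. In liver, 8 hepatocyte genes averaged 12.7 to 13.2 per array, while 7 muscle fibre genes averaged from 6.75 (F22 replicate 2) to 8.92 (F22 replicate 1). In skeletal muscle, the fibre genes averaged 12.9 to 13.1 at P4 and 9.18 to 9.82 at F16. The 8 hepatocyte genes varied between muscle arrays, from 6.99 (F16 replicate 5) to 9.66 (P4 replicate 3). At F16 alone they averaged 6.99 to 9.37 per muscle array, and their part in the muscle values was not tested. The signal of 3 keratinocyte genes there was 12.7 to 13.0 at P4 and 8.95 to 10.2 at F16, and that of 6 adipocyte genes was 9.27 to 9.57 at P4 and 7.05 to 7.18 at F16. The samples were whole tissue, in which fewer cells of a type and less RNA per cell cannot be told apart.

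The promoter windows are shown first, so that the direction of a member in liver between F16 and P4, described further on, can be set beside its sequence. Members with the same direction were not all called in the same intervals. RefSeq windows of 300 bases, from 250 bases before to 50 bases after the annotated start (build GRCr8), matched 7 of the 10 genes, with 2 windows for Bcat1. Bckdha, Ppm1k and Mccc2 had no entry. The windows of the 4 matched genes that rose in liver between F16 and P4 come first, at chr8:93725027-93725326 on the plus strand for Bckdhb, chr2:207166410-207166709 on the plus strand for Dbt, chr3:126305334-126305633 on the plus strand for Ivd and chr2:120779192-120779491 on the minus strand for Mccc1. Those of Bcat2 (chr1:105178889-105179188, plus strand) and Bckdk (chr1:191945559-191945858, plus strand), which fell, follow. Bcat1 fell as well, but its 2 windows are not printed. The Bcat2 window lies within the gene record, which begins at chr1:105175157, so that it does not cover that end of the gene. The windows of Bcat1 lie within its gene record as well. Capitals mark the CCAAT box, read as CCAAT or, on the opposite strand, ATTGG.
Bckdhb: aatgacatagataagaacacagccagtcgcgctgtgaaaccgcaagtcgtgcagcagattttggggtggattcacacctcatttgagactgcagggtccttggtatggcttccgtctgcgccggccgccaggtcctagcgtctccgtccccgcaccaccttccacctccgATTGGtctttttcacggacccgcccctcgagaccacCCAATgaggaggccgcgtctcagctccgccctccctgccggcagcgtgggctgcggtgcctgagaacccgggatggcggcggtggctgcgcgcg
Dbt: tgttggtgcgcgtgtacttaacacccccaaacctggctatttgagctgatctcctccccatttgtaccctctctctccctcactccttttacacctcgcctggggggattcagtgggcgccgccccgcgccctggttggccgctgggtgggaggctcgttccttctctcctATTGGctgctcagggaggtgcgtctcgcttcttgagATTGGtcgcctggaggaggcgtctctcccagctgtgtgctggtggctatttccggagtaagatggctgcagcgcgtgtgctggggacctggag
Ivd: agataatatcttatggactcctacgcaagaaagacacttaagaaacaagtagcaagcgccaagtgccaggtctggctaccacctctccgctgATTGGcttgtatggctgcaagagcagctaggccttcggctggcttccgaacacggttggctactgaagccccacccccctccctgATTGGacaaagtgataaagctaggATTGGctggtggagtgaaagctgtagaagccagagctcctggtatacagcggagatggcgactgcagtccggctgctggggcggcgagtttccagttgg
Mccc1: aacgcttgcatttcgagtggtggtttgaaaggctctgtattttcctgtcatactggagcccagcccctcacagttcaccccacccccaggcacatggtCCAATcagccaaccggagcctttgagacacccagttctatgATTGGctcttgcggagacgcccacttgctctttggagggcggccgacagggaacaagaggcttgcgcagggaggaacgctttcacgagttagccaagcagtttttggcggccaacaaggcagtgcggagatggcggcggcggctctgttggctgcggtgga
Bcat2: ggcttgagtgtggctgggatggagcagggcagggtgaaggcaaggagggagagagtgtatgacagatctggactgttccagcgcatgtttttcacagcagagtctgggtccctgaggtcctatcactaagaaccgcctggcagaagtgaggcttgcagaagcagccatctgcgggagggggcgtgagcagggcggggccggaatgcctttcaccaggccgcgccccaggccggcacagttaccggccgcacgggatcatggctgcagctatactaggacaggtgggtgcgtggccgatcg
Bckdk: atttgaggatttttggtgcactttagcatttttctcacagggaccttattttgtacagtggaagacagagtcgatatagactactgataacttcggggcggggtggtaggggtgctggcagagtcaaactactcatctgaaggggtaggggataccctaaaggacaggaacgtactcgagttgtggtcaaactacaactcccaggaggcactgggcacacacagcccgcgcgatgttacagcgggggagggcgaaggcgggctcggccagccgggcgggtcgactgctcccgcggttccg

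CCAAT was present 2 times in the Bckdhb, Dbt and Mccc1 windows and 3 times in the Ivd window. It was found neither in the Bcat2 nor in the Bckdk window. Of the windows of Bcat1, which fell too, the first held it 1 time and the second did not hold it. Over all 33469 RefSeq windows of this length, 37.5% held CCAAT on either strand. The matches of Bckdhb began 80 and 44 bases before the start and those of Dbt 79 and 43 bases before it. Of the other motifs searched on both strands, the GC box GGGCGG was present in every window except those of Bcat1, against 33.1% of all windows. TATAAA (14.2% of all windows), CACGTG (6.42%), AGGTCA (16.2%) and TGACGT (7.94%) were found in none of the windows of these genes. Such matches describe the letters of a window and say nothing of a factor bound there.

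In the liver, the members changed in both directions. Between F16 and P4, the E1 and E2 subunits of the dehydrogenase complex, the phosphatase and the 3 leucine enzymes rose, while both aminotransferases and the inhibiting kinase fell. Ppm1k rose furthest, by 3.56 ± 0.22 (standard error), which is 11.8-fold, and Bcat2 fell furthest, by 1.28 ± 0.07, or 2.43-fold. All 10 genes differed over the 6 time points (moderated F-test of limma, adjusted p from 4.08e-16 for Bcat2 to 0.0012 for Mccc1). A call means here an adjusted p of at most 0.05, with Benjamini-Hochberg adjustment over all 15310 probe sets with 1 gene symbol, of which 84.3% were called by this F-test in liver. In P4 against F16, 7 of the 10 genes rose, against 23.1% of all probe sets, and 3 fell, against 35.0% of all probe sets. The values of the 4 arrays at P4 and the 4 at F16 did not overlap for any of the 10, as was the case for 54.9% of all probe sets. The median change of the 10 genes was 0.84, beside -0.03 over all probe sets.

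Marker genes of other cell types changed in liver over the same interval. Between F16 and P4, 6 of 6 erythroid and 7 of 7 cell cycle genes measured fell, with median changes of -0.97 and -1.38. Over the same interval, 7 of 7 macrophage genes rose, with a median of 1.80, and of 8 hepatocyte genes 7 rose and 1 fell, with a median of 0.53. Of 5 fibroblast genes 4 fell, with a median of -0.41, and of 6 adipocyte genes 4 rose, with a median of 0.51. The mean erythroid signal per array was 11.4 to 11.7 at P4 and 12.4 to 12.5 at F16. Their part in the changes of the pathway was not tested.

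**Figure D1:**
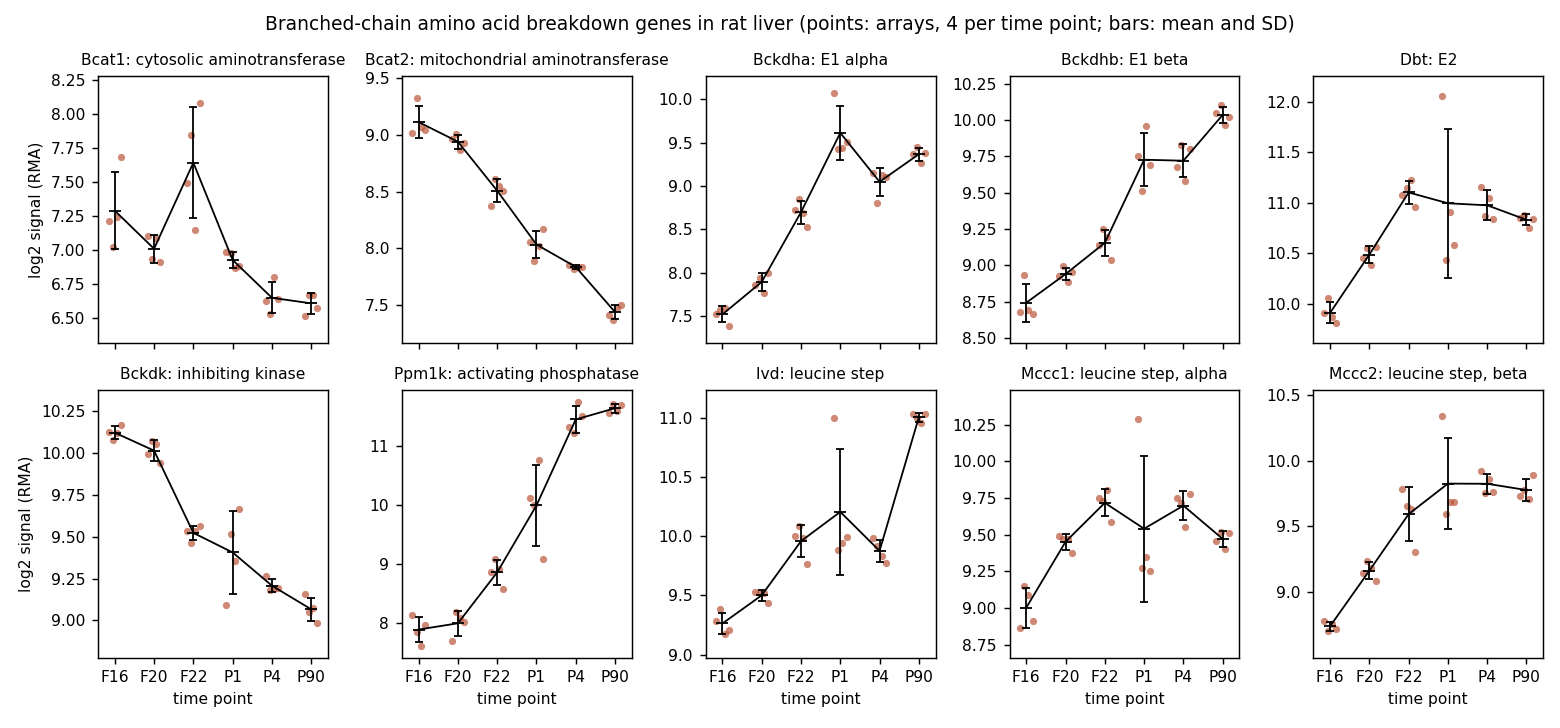
Log2 RMA signal of the 10 genes in rat liver (y axis) at 6 time points (x axis), with 1 point per array, and the mean and SD of 4 arrays as bars. The means of Bcat2 and Bckdk descend at each time point, Ppm1k climbs between F20 and P4 by over 3 log2 units, and P1 replicate 1 stands above its group for Dbt, Ivd, Mccc1, Mccc2 and Bckdha.

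Both aminotransferases were lower in newborn than in early foetal liver. Bcat2, the mitochondrial form, had 9.02, 9.33, 9.07 and 9.05 at F16, 8.96, 9.01, 8.87 and 8.93 at F20, and 8.37, 8.61, 8.55 and 8.51 at F22. After birth it had 8.05, 7.89, 8.02 and 8.17 at P1, 7.86, 7.82, 7.83 and 7.84 at P4, and 7.41, 7.36, 7.47 and 7.50 at P90. Every array of a time point lay below every array of the time point before it. The steps of F22 against F20 (-0.43 ± 0.07, adjusted p = 2.15e-05), P1 against F22 (-0.48 ± 0.07, adjusted p = 5.86e-06) and P90 against P4 (-0.40 ± 0.07, adjusted p = 2.99e-05) passed the test, while F20 against F16 (-0.17, adjusted p = 0.0732) and P4 against P1 (-0.20, adjusted p = 0.0644) did not.

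Bcat1, the cytosolic form known for its expression in foetal and growing tissues, did not descend evenly. It had 7.21, 7.02, 7.24 and 7.68 at F16, 7.10, 6.93, 7.09 and 6.91 at F20 and 7.49, 7.85, 7.15 and 8.08 at F22, and then 6.87 to 6.98 at P1, 6.53 to 6.80 at P4 and 6.52 to 6.67 at P90. The signal at F22 was thus the highest of the series and the most variable (SD 0.41), with F22 replicates 2 and 4 above every other array. Bcat1 rose by 0.63 ± 0.14 in F22 against F20 (adjusted p = 0.000974) and fell by 0.71 ± 0.14 in P1 against F22 (adjusted p = 0.000286) and by 0.64 ± 0.14 in P4 against F16 (adjusted p = 0.000418). Its mean over the liver arrays, 7.02, lay at the 36.8th percentile of the probe sets, near the unspecific signal that RMA retains, where changes are compressed.

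Bckdha, Bckdhb and Dbt rose in liver, most of it before birth or at birth. Bckdha (E1 alpha) had 7.52, 7.57, 7.60 and 7.39 at F16, 7.86, 7.94, 7.77 and 8.00 at F20 and 8.72, 8.85, 8.69 and 8.53 at F22. It had 10.07, 9.43, 9.44 and 9.51 at P1, 9.15, 8.81, 9.13 and 9.10 at P4 and 9.37, 9.46, 9.27 and 9.38 at P90. No neighbouring time points overlapped, and the signal peaked at P1, with replicate 1 the highest array. Bckdha rose by 0.37 ± 0.11 in F20 against F16, by 0.80 ± 0.11 in F22 against F20 and by 0.91 ± 0.11 in P1 against F22 (adjusted p = 0.0168, 4.22e-06 and 5.97e-07). It then fell by 0.56 ± 0.11 in P4 against P1 (adjusted p = 0.00169) and rose by 0.32 ± 0.11 in P90 against P4 (adjusted p = 0.0184). The total rise in P4 against F16 was 1.53 ± 0.11, or 2.88-fold (adjusted p = 2.82e-11). The call of F20 against F16 was lost without F16 replicate 4 (adjusted p = 0.0592) or F20 replicate 4 (adjusted p = 0.0562), and that of P90 against P4 without P4 replicate 2 (adjusted p = 0.0818) or P90 replicate 2 (adjusted p = 0.0524).

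Bckdhb (E1 beta), which pairs with E1 alpha, had 8.67 to 8.94 at F16, 8.89 to 8.99 at F20, 9.04 to 9.25 at F22, 9.51 to 9.96 at P1, 9.58 to 9.83 at P4 and 9.97 to 10.1 at P90. It rose in 3 of the 5 intervals, by 0.21 ± 0.08 in F22 against F20 (adjusted p = 0.0381), by 0.57 ± 0.08 in P1 against F22 (adjusted p = 4.23e-06) and by 0.32 ± 0.08 in P90 against P4 (adjusted p = 0.00196). The first of these 3 calls was lost when any of F20 replicates 1, 3 and 4 or F22 replicates 1, 2 and 3 was left out, with changes of 0.18 to 0.22 and adjusted p of 0.0611 to 0.117. Bckdhb was 1.97-fold higher at P4 than at F16 (0.98 ± 0.08, adjusted p = 2.26e-10). P4 against P1 gave -0.0068 (adjusted p = 0.975).

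Dbt (E2), the core to which the other components bind, rose early. It had 9.91, 10.05, 9.87 and 9.81 at F16, 10.45, 10.55, 10.39 and 10.56 at F20 and 11.08, 11.15, 11.23 and 10.96 at F22, and these 3 groups did not overlap. After birth it had 12.06, 10.44, 10.91 and 10.58 at P1, 11.15, 10.87, 11.05 and 10.84 at P4 and 10.85, 10.88, 10.75 and 10.84 at P90. At P1, replicate 1 was more than 1 log2 unit above the other 3 arrays, which all lay below the F22 arrays. Dbt rose by 0.58 ± 0.20 in F20 against F16 (adjusted p = 0.0453), by 0.61 ± 0.20 in F22 against F20 (adjusted p = 0.0201) and by 1.06 ± 0.20 in P4 against F16 (adjusted p = 8.44e-05). The first of these calls was lost in 20 of the 24 fits that left out 1 array, with adjusted p of 0.0503 to 0.101, and the second without F22 replicate 3 (0.57, adjusted p = 0.0513).

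The 2 regulators of the complex moved in opposite directions. Ppm1k, the activating phosphatase, had 8.13, 7.84, 7.61 and 7.95 at F16, 7.70, 8.18, 8.08 and 8.01 at F20 and 8.87, 9.08, 8.90 and 8.56 at F22. It had 10.12, 9.99, 10.76 and 9.08 at P1, 11.32, 11.21, 11.75 and 11.51 at P4 and 11.56, 11.72, 11.59 and 11.69 at P90. The F16 and F20 arrays overlapped, the groups from F22 to P4 stood clear of their neighbours, P1 replicate 4 by less than the rounding of these values, and P4 and P90 overlapped. Ppm1k rose by 0.86 ± 0.22 in F22 against F20 (adjusted p = 0.0027), by 1.14 ± 0.22 in P1 against F22 (adjusted p = 0.000189) and by 1.46 ± 0.22 in P4 against P1 (adjusted p = 0.000117). For P4 against F16 the adjusted p was 1.34e-12, and P90 against P4 gave 0.19 (adjusted p = 0.467). With all arrays it was the sole member that rose in P4 against P1, and this call held when any 1 array was left out.

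Bckdk, the inhibiting kinase, had 10.13, 10.08, 10.12 and 10.17 at F16, 9.99, 10.07, 10.06 and 9.94 at F20 and 9.53, 9.46, 9.53 and 9.56 at F22. It had 9.09, 9.51, 9.35 and 9.67 at P1, 9.26, 9.18, 9.19 and 9.20 at P4 and 9.16, 9.05, 9.07 and 8.99 at P90. The P1 arrays overlapped both the F22 and the P4 arrays, whereas F22 lay clear below F20. The fall of 0.49 ± 0.08 in F22 against F20 (adjusted p = 2.52e-05) was the single interval past the test, and the fall in P4 against F16 was 0.91 ± 0.08, or 1.89-fold (adjusted p = 5.14e-10).

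Within each array, the log2 ratio of Bckdk to Ppm1k was set to 0 at the mean of F16. In liver it averaged -0.21 ± 0.18 at F20, -1.57 ± 0.25 at F22, -2.82 ± 0.87 at P1, -4.48 ± 0.25 at P4 and -4.81 ± 0.14 at P90 (SD, n = 4 each). The 4 P1 arrays ran from -3.65 to -1.65, while the F22 arrays ran from -1.86 to -1.24 and the P4 arrays from -4.80 to -4.27, so that P1 overlapped F22 and not P4. In skeletal muscle the same ratio averaged 0.061 ± 0.054 at F18, 0.22 ± 0.070 at F20, 0.044 ± 0.15 at F22, -0.35 ± 0.10 at P1 and 0.22 ± 0.12 at P4 (SD, n = 5 each). It shows how unequally the 2 signals changed and is no measure of the phosphorylation of the complex.

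**Figure D2:**
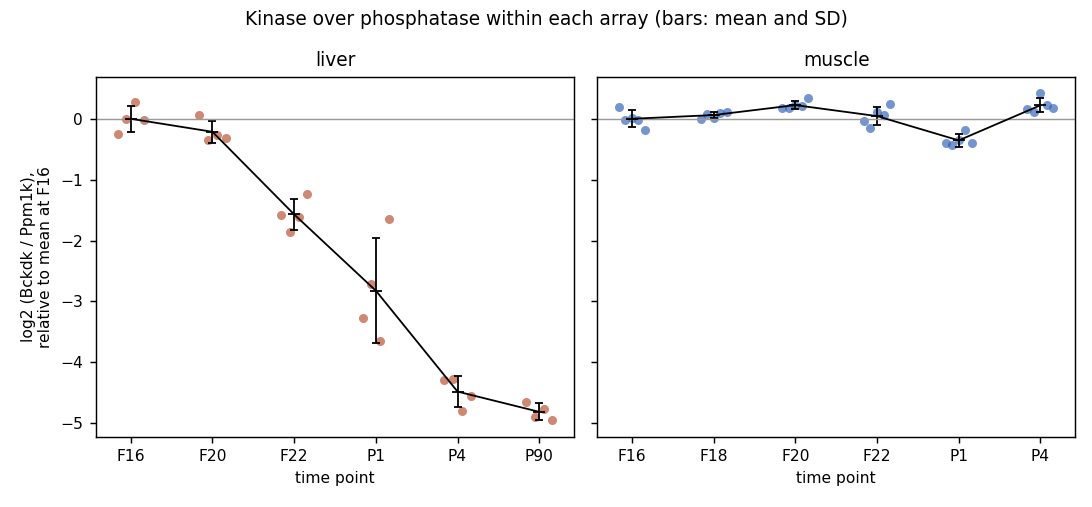
Log2 ratio of the Bckdk signal to the Ppm1k signal within each array (y axis), relative to its mean at F16, by time point (x axis) in liver (left, 4 arrays per time point) and skeletal muscle (right, 5 arrays per time point). Points are arrays and bars the mean and SD. The liver ratio averages -4.48 at P4, while the muscle ratio averages 0.22 at P4.

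The leucine enzymes rose before birth, and Ivd again in the adult. Ivd had 9.28, 9.38, 9.17 and 9.21 at F16, 9.53, 9.52, 9.52 and 9.43 at F20 and 10.00, 10.09, 9.98 and 9.77 at F22. It had 11.00, 9.88, 9.94 and 9.99 at P1, 9.98, 9.91, 9.83 and 9.77 at P4 and 11.03, 11.00, 10.95 and 11.03 at P90. The 4 adult arrays and P1 replicate 1 stood clear above all the other liver arrays. Ivd rose by 0.46 ± 0.15 in F22 against F20 (adjusted p = 0.02), a call lost without F22 replicate 2 (0.41, adjusted p = 0.0606). It rose by 1.13 ± 0.15 in P90 against P4, or 2.19-fold (adjusted p = 1.14e-06), and by 0.61 ± 0.15 in P4 against F16 (adjusted p = 0.00125).

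The 2 carboxylase subunits followed similar courses up to F22. Mccc1 averaged 9.00 ± 0.14 at F16, 9.45 ± 0.05 at F20, 9.72 ± 0.09 at F22, 9.54 ± 0.50 at P1, 9.70 ± 0.10 at P4 and 9.47 ± 0.05 at P90 (SD, n = 4 each). Mccc2 averaged 8.74 ± 0.03 at F16, 9.16 ± 0.06 at F20, 9.59 ± 0.20 at F22, 9.83 ± 0.34 at P1, 9.82 ± 0.08 at P4 and 9.78 ± 0.08 at P90. Mccc1 rose by 0.45 ± 0.14 in F20 against F16 (adjusted p = 0.0271), which was lost without F16 replicate 1 or 4 or F20 replicate 1, 2 or 3 (0.40 to 0.44, adjusted p 0.0543 to 0.0823). Mccc2 rose by 0.42 ± 0.11 in F20 against F16 and by 0.43 ± 0.11 in F22 against F20 (adjusted p = 0.00957 and 0.00446). The rise in P4 against F16 was 0.70 ± 0.14 for Mccc1 and 1.08 ± 0.11 for Mccc2 (adjusted p = 0.000209 and 1.81e-08).

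Counted by interval, the changes of the 10 genes in liver were most numerous between F20 and F22. In F20 against F16, 4 rose (9.22% of all probe sets) and none fell (13.2%). An unadjusted p of at most 0.05 gave 6 in either direction (32.7%). The 4 calls became 1 without F16 replicate 4 and 2 without F16 replicate 1 or any of the F20 replicates 1 to 4, where 7.49% to 8.65% of all probe sets rose. Over this interval 7 of 7 macrophage genes and 6 of 8 hepatocyte genes rose, with median changes of 1.03 and 0.31, and their part was not tested. In F22 against F20, 7 rose (15.3%) and 2 fell (21.6%), leaving Mccc1 alone not called. In the same interval 7 of 7 macrophage genes rose, 7 of 7 cell cycle genes fell and 4 of 6 erythroid genes fell, with median changes of 0.78, -0.47 and -0.37. Of 8 hepatocyte genes 4 rose and 1 fell, with a median of 0.12, and the part of these lists in these values was not tested. In P1 against F22, Bckdha, Bckdhb and Ppm1k rose (14.8%) and both aminotransferases fell (21.9%), which made 3 rises and 2 falls. Over this interval 6 of 6 erythroid and 7 of 7 cell cycle genes fell as well, with median changes of -0.78 and -1.01, and their part in these values was not tested. In P4 against P1, Ppm1k rose (4.87%) and Bckdha fell (6.10%), so that 2 of the 10 were called, and 5 at an unadjusted p (24.1%). In P90 against P4, Bckdha, Bckdhb and Ivd rose (28.8%) and Bcat2 fell (27.1%), which made 3 rises and 1 fall. In that interval 6 of 6 erythroid and 7 of 7 cell cycle genes fell, with median changes of -4.27 and -3.09, and their part was not tested.

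P1 replicate 1 bears on the 2 intervals that meet at P1. Its values were 12.06 for Dbt, 11.00 for Ivd, 10.29 for Mccc1, 10.34 for Mccc2 and 10.07 for Bckdha, each above the other 3 P1 arrays, and 9.09 for Bckdk, below them. Without it, Dbt and Mccc1 fell in P1 against F22, by 0.46 and 0.43 (adjusted p = 0.000423 and 3.42e-05), against -0.11 and -0.18 with all arrays (adjusted p = 0.736 and 0.383). In P4 against P1 without it, Dbt rose by 0.33, Mccc1 rose by 0.41 and Bckdk fell by 0.30 (adjusted p = 0.0193, 0.000397 and 0.00158). Without this array, 3 members rose and 4 fell in P1 against F22, where 38.7% of all probe sets were called in either direction, and 3 rose and 2 fell in P4 against P1, where 15.3% were. Without P1 replicate 4, Bckdk fell in P1 against F22 (-0.20, adjusted p = 0.0283), and without P1 replicate 2, Mccc2 rose (0.31, adjusted p = 0.0482). Bcat2 fell in P4 against P1 without F16 replicate 2 (adjusted p = 0.0329) or P1 replicate 2 (-0.25, adjusted p = 0.0292). The calls of P4 against F16 kept their number of 10 without any single array.

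In skeletal muscle, 3 of the 10 genes changed between F16 and P4. All 10 differed over the 6 time points (limma F-test, adjusted p from 1.28e-07 for Ppm1k to 0.000751 for Bckdhb), as did 75.0% of all probe sets. In P4 against F16, Bckdk rose by 0.21 ± 0.04 (adjusted p = 0.000113), while Bcat1 fell by 0.58 ± 0.15 (adjusted p = 0.00151) and Mccc1 by 0.44 ± 0.08 (adjusted p = 4.33e-05). This made 1 rise (26.7% of all probe sets) and 2 falls (35.0%), and the same 3 genes had groups that did not overlap (48.2%). The changes of the other 7 genes lay between -0.13 and 0.16, and the median of the 10 was -0.035, beside -0.042 over all probe sets. Without the 4 muscle arrays that were set apart, Bcat2 (-0.14, adjusted p = 0.0174) and Bckdhb (-0.17, adjusted p = 0.0354) also fell. Single omissions added Bcat2 without F16 replicate 5 (-0.14, adjusted p = 0.037) and Bckdha without P1 replicate 3, P4 replicate 3 or P4 replicate 4 (0.16 to 0.19, adjusted p 0.0395 to 0.0407). In the same interval 7 of 7 fibre, 6 of 6 adipocyte, 3 of 3 keratinocyte and 6 of 6 erythroid genes rose and 7 of 7 cell cycle genes fell. Of 7 macrophage genes 5 rose, and of 5 fibroblast genes 4 rose and 1 fell. The part of these lists in these values was not tested.

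**Figure D3:**
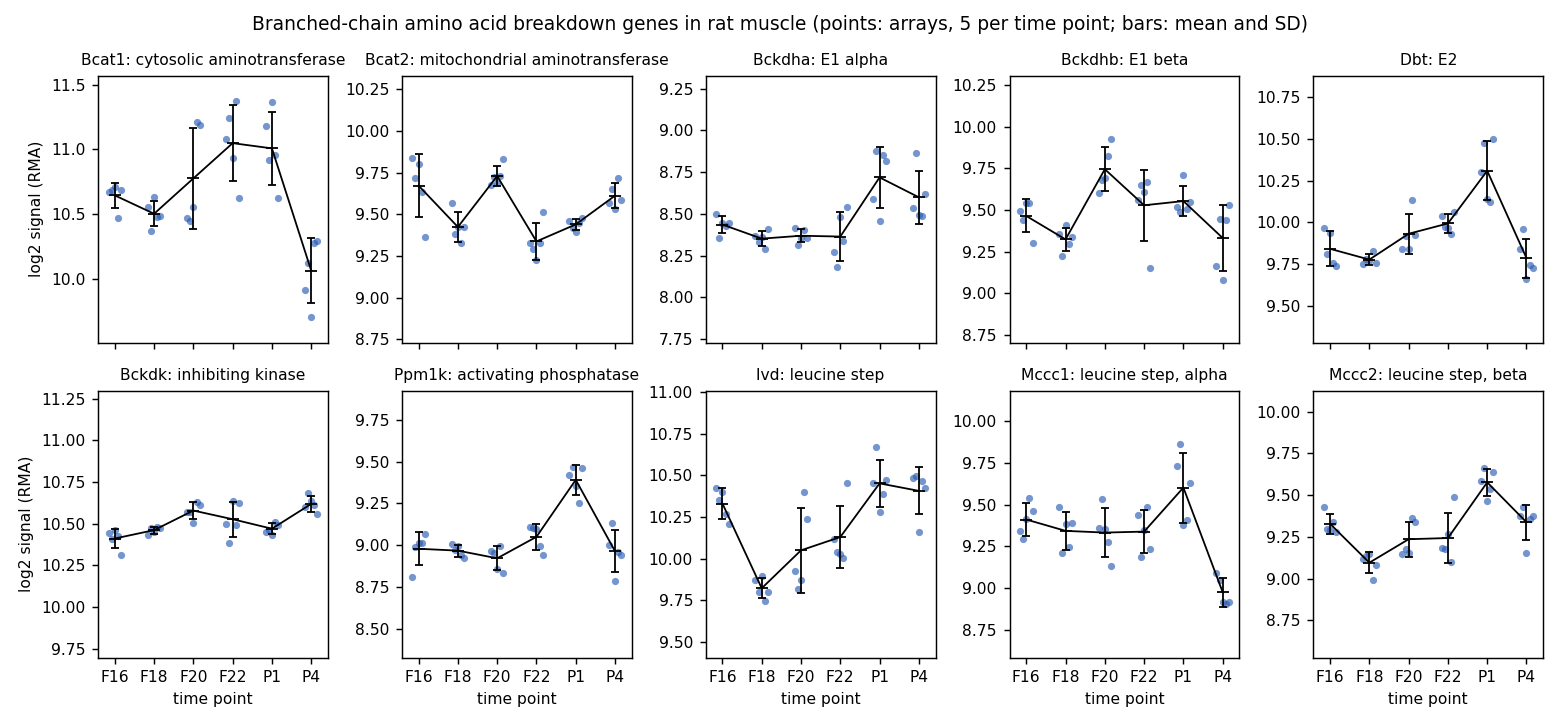
Log2 RMA signal of the 10 genes in rat skeletal muscle (y axis) at 6 time points (x axis), with 1 point per array, and the mean and SD of 5 arrays as bars. The y axes differ in range. Bcat1 drops at P4 below all its other arrays, while the means of Bckdha, Dbt, Ppm1k, Ivd, Mccc1 and Mccc2 are highest at P1.

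Bcat1 had the largest single step in muscle. It had 10.67, 10.69, 10.71, 10.47 and 10.69 at F16, 10.55, 10.37, 10.63, 10.48 and 10.48 at F18 and 10.47, 10.45, 10.56, 11.21 and 11.19 at F20. It had 11.08, 11.24, 10.93, 11.37 and 10.62 at F22, 11.18, 10.92, 11.36, 10.96 and 10.63 at P1 and 9.91, 10.12, 9.71, 10.28 and 10.29 at P4. All 5 P4 arrays lay below all the other muscle arrays, and the fall of 0.95 ± 0.15 in P4 against P1, or 1.93-fold, passed the test (adjusted p = 2.11e-05). The F20 arrays formed 2 groups, with replicates 4 and 5, both among the 4 that were set apart, near the F22 values. Without those 4 arrays Bcat1 rose by 0.66 in F22 against F20 (adjusted p = 0.00137), against 0.27 with all arrays (adjusted p = 0.229).

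Bcat2, the aminotransferase for which adult muscle is known, went up and down before birth. It averaged 9.67 ± 0.19 at F16, 9.42 ± 0.09 at F18, 9.73 ± 0.06 at F20, 9.34 ± 0.11 at F22, 9.44 ± 0.03 at P1 and 9.61 ± 0.07 at P4 (SD, n = 5 each). It fell by 0.25 ± 0.07 in F18 against F16, rose by 0.31 ± 0.07 in F20 against F18, fell by 0.39 ± 0.07 in F22 against F20 and rose by 0.17 ± 0.07 in P4 against P1 (adjusted p = 0.00441, 0.000763, 0.000144 and 0.0451). The last of these was lost in 14 of the 30 fits that left out 1 array, with adjusted p of 0.0504 to 0.121. The ratio of Bcat2 to Bcat1 within each array, relative to F16, averaged 0.52 ± 0.20 at P4 and -0.60 ± 0.30 at P1 (log2, SD, n = 5 each), and the P4 arrays, at 0.27 to 0.80, lay above the P1 arrays, at -0.99 to -0.17.

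Around birth, several members rose and came down again. In P1 against F22, Bckdha, Dbt, Ppm1k, Ivd, Mccc1 and Mccc2 rose, by 0.35, 0.32, 0.34, 0.32, 0.26 and 0.33 (adjusted p = 0.00115, 0.00173, 7.96e-05, 0.0187, 0.0261 and 0.000348). These 6 rises stood beside 9.50% of all probe sets, and no member fell (8.82%), while an unadjusted p gave the same number of 6 in either direction (29.0%). In P4 against P1, Dbt fell by 0.52, Ppm1k by 0.43, Mccc1 by 0.63 and Mccc2 by 0.24 (adjusted p = 1.4e-06, 1.4e-06, 1.36e-06 and 0.00407). With Bcat1, this made 5 falls (14.7%), and Bcat2 and Bckdk made 2 rises (19.2%). In this interval 5 of 6 erythroid genes rose, with a median change of 1.83 and a mean signal per array of 10.9 to 11.3 at P4 and 8.92 to 9.43 at P1, and 2 of 3 keratinocyte genes fell (median -0.45). Their part in these values was not tested. Bckdhb (-0.22, adjusted p = 0.0521) was called without F16, F20 or F22 replicate 5 or P4 replicate 2, 4 or 5 (-0.27 to -0.22, adjusted p 0.0188 to 0.0485). Ppm1k had 9.11, 9.10, 9.10, 9.00 and 8.94 at F22, 9.42, 9.47, 9.35, 9.25 and 9.47 at P1 and 9.00, 9.13, 8.79, 8.96 and 8.94 at P4. Every P1 array was above every array of both neighbouring time points. The P1 and F22 arrays of Dbt did not overlap either, while those of Bckdha, Ivd, Mccc1 and Mccc2 did. Thus 2 of the 10 members were without overlap in P1 against F22 (13.9% of all probe sets).

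Adipocyte genes rose in muscle in the same interval, 5 of 6 of them in P1 against F22, with a median change of 1.41. Their mean signal per array was 8.12 to 10.1 at P1 and 7.69 to 8.38 at F22. The part of this in the rise of the 6 members was not tested. At P4 the adipocyte signal was 9.27 to 9.57, and none of its 6 genes was called in P4 against P1. Of the 6 members, Dbt, Ppm1k, Mccc1 and Mccc2 fell in that interval, and the part of the adipocyte signal there was not tested either. Bckdha (-0.12, adjusted p = 0.243) and Ivd (-0.045, adjusted p = 0.777) were not called. Leaving out 1 array ended the call of Ivd in P1 against F22 without F22 replicate 3 or 4 or P1 replicate 2 (0.27 to 0.30, adjusted p 0.0505 to 0.0706). It ended that of Mccc1 without F22 replicate 2 or 5 or P1 replicate 1, 2 or 5 (0.20 to 0.26, adjusted p 0.0523 to 0.11).

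Before birth in muscle, 3 members fell, 3 rose and 1 fell over the 3 successive intervals from F16 to F22. In F18 against F16, Ivd fell by 0.51 ± 0.10, Bcat2 by 0.25 ± 0.07 and Mccc2 by 0.23 ± 0.06 (adjusted p = 0.000153, 0.00441 and 0.00517), which made 3 falls (19.3%), and no member rose (14.1%), while an unadjusted p gave 3 in either direction (41.5%). In this interval 3 of 3 keratinocyte and 6 of 7 fibre genes rose, with median changes of 3.47 and 0.87, and their part was not tested. Ivd had 9.88, 9.80, 9.89, 9.75 and 9.80 at F18, against 10.43, 10.35, 10.40, 10.27 and 10.21 at F16, without overlap. In F20 against F18, Bcat2 rose by 0.31, Bckdhb by 0.42 and Bckdk by 0.12 (adjusted p = 0.000763, 0.000509 and 0.0382), which made 3 rises (14.6%), and no member fell (15.9%). An unadjusted p gave 6 calls in this interval (39.7%). The fit without F22 replicate 5 gave 5 rises, where 15.5% of all probe sets rose. Here 7 of 7 fibre, 4 of 4 myoblast and 3 of 3 keratinocyte genes rose, with median changes of 1.15, 0.73 and 0.64, and their part in these values was not tested. The call of Bckdk was lost in 9 of 30 fits that left out 1 array, with adjusted p of 0.0514 to 0.102. In F22 against F20, Bcat2 alone fell (13.8%) and none rose (6.02%), while an unadjusted p gave 3 calls (31.6%). Over the same interval 7 of 7 fibre genes rose (median 0.72) and 5 of 7 cell cycle genes fell (median -0.28), and their part was not tested.

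Bckdk and Mccc1 differed in muscle between F16 and P4 with little spread. Bckdk had 10.60, 10.68, 10.64, 10.61 and 10.56 at P4, against 10.44, 10.41, 10.46, 10.43 and 10.31 at F16. Mccc1 had 9.09, 9.05, 8.92, 8.90 and 8.92 at P4, against 9.34, 9.30, 9.41, 9.54 and 9.46 at F16. In both cases the 2 groups were apart, Bckdk by a small margin and upwards, opposite to its direction in liver.

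The test of the difference between the tissues set the change in liver minus that in muscle, in 1 limma fit of all 54 arrays. This fit took the arrays of the tissues as independent, while the labels do not say whether liver and muscle came from the same animals. In P4 against F16, the difference was positive for 7 genes (24.9% of all probe sets) and negative for 2 (33.0%). It was 3.58 ± 0.21 for Ppm1k (adjusted p = 7.08e-20), 1.36 ± 0.13 for Bckdha, 1.13 ± 0.16 for Mccc1, 1.12 ± 0.20 for Dbt, 1.11 ± 0.12 for Bckdhb, 1.07 ± 0.13 for Mccc2 and 0.54 ± 0.18 for Ivd (adjusted p from 1.49e-12 for Bckdha to 0.00849 for Ivd). It was -1.22 ± 0.10 for Bcat2 and -1.12 ± 0.08 for Bckdk (adjusted p = 1.87e-15 and 3.19e-16). For Bcat1, which fell in both tissues, the difference was -0.058 ± 0.22 (adjusted p = 0.845). These 9 calls kept their number without any single array.

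Across birth, in P1 against F22, the difference between the tissues was positive for 3 genes (12.5%) and negative for 3 (19.5%). Ppm1k (0.79 ± 0.21), Bckdha (0.56 ± 0.13) and Bckdhb (0.55 ± 0.12) had a higher change in liver (adjusted p = 0.00255, 0.000756 and 0.000443). Bcat1 (-0.67 ± 0.22), Bcat2 (-0.58 ± 0.10) and Mccc1 (-0.44 ± 0.16) had a lower change in liver (adjusted p = 0.0149, 4.6e-06 and 0.0337). The call of Bcat1 was lost without liver F22 replicate 4 (-0.53, adjusted p = 0.0638) and that of Mccc1 in 9 of 54 fits that left out 1 array, with changes of -0.43 to -0.35 and adjusted p of 0.0534 to 0.116. Without liver P1 replicate 1, Dbt (-0.78), Ivd (-0.34) and Mccc2 (-0.27) were called too (adjusted p = 6.2e-07, 0.038 and 0.0316).

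The rest of the pathway was read from a list of 30 further genes for uptake, the later steps of the 3 branches, propionyl-CoA use, biotin and electron transfer, of which 25 had a probe set of their own. In liver, 19 of the 25 rose and 4 fell in P4 against F16, beside 23.1% and 35.0% of all probe sets. Their median change was 0.99, against -0.03 over all probe sets. The furthest rises were those of Agxt2, an aminotransferase of beta-amino acids (2.82, adjusted p = 6.49e-14), Acadsb, the dehydrogenase of the isoleucine branch (2.05, adjusted p = 5.16e-10), and Aldh6a1, which oxidises methylmalonate semialdehyde from valine (2.03, adjusted p = 3.14e-17). The lowest were 3 transport genes, Slc7a5 (-1.11), Slc43a1 (-0.64) and Slc3a2 (-0.38, adjusted p = 1.74e-10, 1.32e-06 and 4.89e-05), of which Slc7a5 and Slc3a2 form a heterodimeric exchanger of large neutral amino acids. The E3 subunit Dld also fell, by 0.24 (adjusted p = 0.0238), while the other 3 subunits of the complex rose.

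In skeletal muscle, 12 of the 25 rose and 7 fell in P4 against F16, beside 26.7% and 35.0% of all probe sets. Their median change was 0.18, against -0.042 over all probe sets. The furthest rises were those of 3 transport genes, Slc7a8 (2.19), Slc43a2 (1.21) and Slc7a5 (1.18, adjusted p = 1.5e-14, 9.59e-12 and 7.16e-12). The lowest were Abat, the transaminase of GABA (-1.44), the propionyl-CoA carboxylase subunit Pccb (-0.56) and the enoyl-CoA hydratase Echs1 (-0.24, adjusted p = 6.88e-16, 7.25e-11 and 0.000347). Slc7a5 thus fell in liver and rose in muscle, and the difference of -2.29 passed the test (adjusted p = 8.46e-20).

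**Figure D4:**
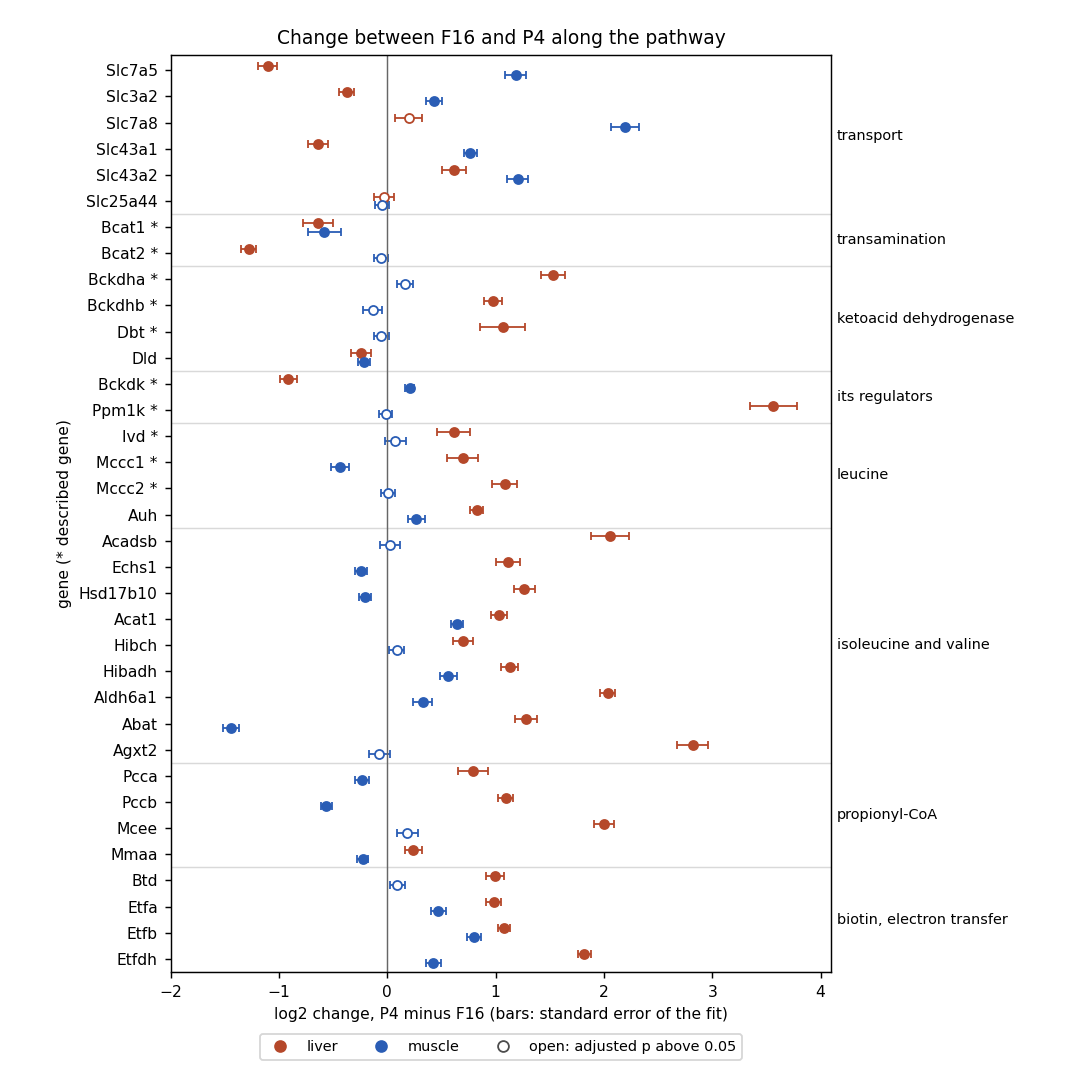
Log2 change in P4 minus F16 (x axis) of the 10 genes, marked by asterisks, and of 25 other genes of the pathway (y axis), grouped by step, in liver (red) and skeletal muscle (blue). Bars are the standard error of the fit, and open circles have an adjusted p above 0.05. From the complex to electron transfer most liver points lie right of 0, with Bckdk and Dld to the left, while the muscle points of the transport genes other than Slc25a44 lie right of 0.

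The genes whose course was most like that of the members with the highest and the lowest change in P4 against F16 were found by the Pearson correlation over the arrays of a tissue. For Ppm1k over the 24 liver arrays these were Prlr (0.964), Mtus1 (0.962) and Serpinf1 (0.957), and for Bcat2 they were Gart (0.989), Nudt5 (0.987) and Prmt7 (0.987). For Bckdk over the 30 muscle arrays they were Aph1a (0.857), Heyl (0.837) and Dtx4 (0.821), and for Bcat1 they were Slc29a4 (0.842), Pls3 (0.835) and Gfpt2 (0.814). The arrays of a tissue share the same time points and normalisation, so that any genes with a like trend over development correlate.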

How the data were processed

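RNA from liver and from skeletal muscle of the hind limb was hybridised by the authors to Affymetrix GeneChip Rat Gene ST arrays, 54 in all. The authors deposited log2 values after background correction, quantile normalisation and summary of probes by RMA, with each tissue processed on its own, using Affymetrix Expression Console according to the submitters' processing notes. RMA keeps an unspecific signal in dim probe sets, which compresses their changes, and arrays give no read depth, so that their number limits the precision. Of 29214 probe sets, 15310 had 1 gene symbol in the platform annotation, 323 had several and 13581 had none, and the 15310 were tested. Groups were taken from the labels. For each tissue, limma 3.58.1 (R 4.3.3) was fitted to the 6 time points, and the difference between tissues was tested in 1 fit of all arrays. P-values were adjusted by the Benjamini-Hochberg method with a threshold of 0.05. The code was tested on simulated data. All 10 members are named, with up to 3 of the highest and 3 of the lowest changes among the other genes of the pathway that passed the test, and Dld was named in addition after its values were seen. The 10 members, the pathway list and the marker lists were chosen with earlier results of these data known. Alternatives covered 10 settings and leaving out each array in turn.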

Additional observations from a re-analysis of the deposited data

Results flagged for a closer look

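Single arrays stood apart from the rest of their group by a test of the gap at the edge of the range (Dixon) in 17 of the 120 sets of 1 gene at 1 time point of a tissue, where chance gives about 1 in 20. In liver, P1 replicate 1 was high for Bckdha (10.07), Ivd (11.00), Mccc1 (10.29) and Mccc2 (10.34). F16 replicate 2 was high for Bcat2 (9.33) and Bckdhb (8.94), and F20 replicate 4 was low for Ivd (9.43) and Mccc1 (9.37). P4 replicate 2 was low for Bckdha (8.81) and P4 replicate 1 was high for Bckdk (9.265). In skeletal muscle, F22 replicate 5 was low for Bckdhb (9.15) and high for Ivd (10.46), and P4 replicate 3 was low for Ivd (10.16) and Mccc2 (9.155). F16 replicate 4 was low for Bcat1 (10.47), F20 replicate 4 was high for Dbt (10.13) and P1 replicate 3 was high for Bckdhb (9.71).

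The change in liver minus that in skeletal muscle passed the test for 15 of 20 differences (limma, adjusted p). In P4 against F16 it was 3.58 for Ppm1k, 1.36 for Bckdha, 1.13 for Mccc1, 1.12 for Dbt, 1.11 for Bckdhb, 1.07 for Mccc2, 0.54 for Ivd, -1.12 for Bckdk and -1.22 for Bcat2. In P1 against F22 it was 0.79 for Ppm1k, 0.56 for Bckdha, 0.55 for Bckdhb, -0.44 for Mccc1, -0.58 for Bcat2 and -0.67 for Bcat1.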

How the results depend on the processing

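The count of 10 genes changed in liver in P4 against F16 was the same under the settings that were run, except that without dim probe sets, which leaves no value for Bcat1, it was 9, while counts of a few members in single intervals depended on the setting. With array weights, 7 members were called in liver in F20 against F16, 4 in liver in P4 against P1 and 3 in muscle in F22 against F20. The difference between tissues in P1 against F22 gave 9 with array weights, beside 6 in the main fit. An unadjusted p gave 5 in liver in P4 against P1 (24.1% of all probe sets), 6 in muscle in F20 against F18 (39.7%) and 3 in muscle in F22 against F20 (31.6%). Quantile normalisation again gave 2 in muscle in F22 against F20, and without the 4 muscle arrays that were set apart there were 2 in F22 against F20 and 5 in P4 against F16. The cause of these differences was not tested. For array weights, quantile normalisation again and the fits without the 4 muscle arrays, the share of all probe sets called is not given. Their counts can therefore not be set beside it.

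Leaving out 1 array at a time gave 1 to 5 calls in liver in F20 against F16, 7 to 10 in F22 against F20, 5 to 7 in P1 against F22, 2 to 5 in P4 against P1, 3 to 6 in P90 against P4 and 10 in P4 against F16. The counts reached 5 in liver in P4 against P1 without P1 replicate 1 (15.3% of all probe sets). In muscle they were 3 in F18 against F16, 2 to 5 in F20 against F18, 1 in F22 against F20, 4 to 6 in P1 against F22, 6 to 8 in P4 against P1 and 3 to 4 in P4 against F16. The difference between tissues gave 9 in P4 against F16 and 5 to 9 in P1 against F22. For most of these fits the share of all probe sets called is not given, so that their counts cannot be set beside it.

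The changes that turned sign under these settings had not passed the test. With quantile normalisation again these were Bckdk in liver minus muscle in P1 against F22 (0.013), and in liver Bckdhb (0.0042) and Mccc2 (0.0045) in P4 against P1 and Mccc2 in P90 against P4 (0.011). With each array centred on its median they were, in liver in P90 against P4, Bcat1 (0.013) and Mccc2 (0.0056), and in muscle Mccc1 in F20 against F18 (0.0055) and F22 against F20 (-0.019) and Mccc2 in F22 against F20 (-0.017) and P4 against F16 (-0.049). With array weights they were, in liver in P4 against P1, Bckdhb (0.011), Dbt (0.21) and Mccc2 (0.11), and in muscle Bckdha (-0.0057) and Mccc1 (0.057) in F20 against F18, Mccc1 in F22 against F20 (-0.027) and Bckdhb in P1 against F22 (-0.061). Without the 4 muscle arrays they were Ppm1k in F18 against F16 (0.011), Bcat1 (-0.011) and Mccc1 (0.074) in F20 against F18, Mccc1 in F22 against F20 (-0.053), Bckdhb in P1 against F22 (-0.068), and Mccc2 (-0.0022) and Ppm1k (0.0073) in P4 against F16.

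Among the fits without 1 array, the change in liver minus muscle ran from -0.15 to 0.074 for Bcat1 in P4 against F16, and in P1 against F22 from -0.15 to 0.045 for Bckdk and from -0.34 to 0.033 for Ivd. In liver it ran from -0.081 to 0.0097 for Bcat1 in P90 against P4, from -0.46 to 0.079 for Dbt and from -0.018 to 0.36 for Ivd in P1 against F22, and in P4 against P1 from -0.078 to 0.070 for Bckdhb, from -0.21 to 0.33 for Dbt and from -0.078 to 0.17 for Mccc2. In muscle it ran from -0.053 to 0.011 for Ppm1k in F18 against F16 and from -0.061 to 0.039 for Mccc1 in F20 against F18. In F22 against F20 it ran from -0.050 to 0.041 for Bckdha, from -0.0020 to 0.17 for Ivd, from -0.044 to 0.056 for Mccc1 and from -0.055 to 0.043 for Mccc2. In P1 against F22 it ran from -0.15 to 0.055 for Bcat1 and from -0.068 to 0.060 for Bckdhb, in P4 against P1 from -0.088 to 0.017 for Ivd, and in P4 against F16 from -0.013 to 0.055 for Mccc2 and from -0.057 to 0.030 for Ppm1k.

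Within a tissue, no overall pairing by the replicate numbers of the labels was seen. The deviations of same-numbered arrays of different time points correlated on average between -0.054 and 0.041. In muscle, single pairs reached 0.36 with the same number and 0.40 with different numbers, so that these averages cannot exclude a pairing of some arrays. Whether liver and muscle arrays came from the same animals is not given by the labels, and a pairing across tissues was not examined. With the replicate number as a block, 10 members were called in liver in P4 against F16, and in muscle 2 in F20 against F18 and 6 in P4 against P1, where Bckdk (adjusted p = 0.0559) and Bcat2 (adjusted p = 0.0632) were not called. It changed none of the other 138 calls. Bcat1 in liver and Bckdha in muscle lay below the median of all probe sets and have no value where dim probe sets were left out, and signal over background limits what can be said of them.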

Other observations

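Between P4 and adulthood, 10 of the 25 other genes of the pathway rose in liver and 5 fell, beside 28.8% and 27.1% of all probe sets. In P90 against P4, Abat rose by 1.57 (adjusted p = 8.02e-12, limma), Acadsb by 0.79 and Btd, which recycles biotin, by 0.53. The large neutral amino acid transporter Slc7a5 fell by 2.29 (adjusted p = 3.94e-16), the thiolase Acat1 by 1.38 (adjusted p = 1.36e-13) and Slc43a1 by 1.32 (adjusted p = 1.17e-11). Over the same interval the mean erythroid signal of the liver arrays had a median of 6.93 at P90 and 11.4 at P4, and its part in these values was not tested.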
